A study of Danio rerio with 114 samples.

Results

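The 78 genes described here were taken by symbol as those of the cytoplasmic ribosomal proteins in zebrafish, 44 listed under the large subunit and 34 under the small subunit. They are the genes whose symbol starts with rpl, rps or rplp followed by a digit and holds no letter k, and that reached 10 CPM (counts of a gene scaled to a fixed total of reads on genes) in at least 3 libraries of a period. They were 78 of 84 genes with such a symbol and of 11387 genes that passed the same level filter in any of 5 sets of libraries, out of 31466 gene identifiers counted. The other 6 genes stayed under the filter, with a highest value between 0 CPM (rpl32) and 7.45 CPM (rpl21). Of the 78 members, 67 passed in all 5 sets, and rpl10, rpl30, rpl36al, rpl39 and rpl9 passed only in polyA+ oocyte libraries. One member, rps19bp1, is not a ribosomal protein: the symbol rule takes it in, and its product is known in human cells as a nucleolar partner of the small subunit protein RPS19. Another member, rpl7l1, is counted with the large subunit. Its yeast relative Rlp7 works in assembly and is not part of the finished ribosome.

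Each ribosome holds a single copy of nearly every ribosomal protein, so their mRNAs are usually made and translated as a group. In vertebrates these mRNAs start with a run of pyrimidines, which binds the protein LARP1 and lets the kinase mTOR switch the whole group between translation and storage. A growing oocyte fills the egg with ribosomes for use by the embryo, which then lives on maternal mRNAs, many of them controlled by the length of the polyA tail, until its own genome becomes active.

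The series followed zebrafish through 11 stages: oocytes of stages I, II, III and IV-V (O1 to O4), unactivated, activated and fertilized eggs (UNA, ACT, FER), and embryos with 2, 64 and 1000 cells and at sphere stage (E1 to E4). Wild-type fish (WT) were compared with ski7-/- fish, which carry a deletion in the ski7-specific exon of hbs1l. Ski7 is a cofactor that links the cytoplasmic RNA exosome, the machine that degrades RNA from its 3′ end, to the SKI complex. RNA was sequenced after selection for polyA tails (polyA+, 66 libraries, all stages) or after depletion of ribosomal RNA (rRNA-depleted, 48 libraries, O1 to O4 and E1 to E4), with 3 replicates per group. Both genotypes were of the TLAB strain. Oocytes came from the ovaries of 3 females per genotype, purged beforehand to enrich for earlier stages, and the eggs of 1 replicate at UNA, ACT and FER came from the same female. Only eggs of good quality were taken, from clutches that passed a minimum rate of fertilization. Whether the embryos of the 3 replicates came from separate clutches is not given in the sources used here, so p-values for embryos measure the spread between these samples, which may be technical.

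The polyA+ libraries held 2910639 to 145420525 counted reads (median 9182535), and those depleted of rRNA held 1439427 to 46600444 (median 4649868). Gene counts do not separate ski7 from hbs1l, so the targeted exon could not be checked in them. In polyA+ RNA the gene hbs1l had a median level of 26.6 TMM-scaled CPM in WT and 16 in ski7-/- oocytes (n = 12 each), 12.2 and 14 in eggs (n = 9 each) and 11.9 and 13.7 in embryos (n = 12 each). In rRNA-depleted RNA its medians were 23.6 and 17.4 in oocytes and 15.8 and 19.3 in embryos, so ski7-/- was the lower genotype in oocytes alone. Of 9 oocyte markers 8 were matched, and 7 reached 10 CPM in WT O1 and O4 libraries of both types. Of 10 matched follicle cell markers, 1 reached 10 CPM in WT O1 polyA+ libraries and 6 in WT O4. In bulk RNA, fewer cells of a type and less RNA per cell cannot be told apart.

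A few libraries stood apart in the members' values. At UNA, the WT libraries gave the members 0.746%, 1.322% and 1.146% of their reads on genes, at ACT 0.805%, 0.964% and 1.065%, and at FER 0.648%, 1.148% and 1.184%, so replicate 1 of the WT eggs was the lowest at all of them. In ski7-/- O2 polyA+ RNA the shares were 2.018%, 3.942% and 3.578%, again with replicate 1 low, whereas the rRNA-depleted libraries of the same number did not stand apart (1.225%, 1.335% and 1.208%). The changes from O4 to UNA and the egg genotype differences are given with and without WT replicate 1, and the O2 genotype difference with and without ski7-/- replicate 1.

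The members took a large and then a falling share of the RNA. In WT polyA+ RNA they held 4.30% ± 0.134 (SD, n = 3) of reads on genes at O1, 3.47% ± 0.069 at O4, 1.07% ± 0.295 at UNA, 0.71% ± 0.060 at E1 and 0.467% ± 0.058 at E4. The drop between the largest oocytes and unactivated eggs was larger than the spread between replicates, and no WT egg library reached the level of any oocyte library. In WT rRNA-depleted RNA they held 1.56% ± 0.050 at O1, 1.21% ± 0.065 at O4, 0.574% ± 0.018 at E1 and 0.516% ± 0.027 at E4. The share in rRNA-depleted RNA was thus lower than in polyA+ RNA in oocytes, and the kinds of library came close to each other in the embryo. The ratio of the polyA+ share to the rRNA-depleted share, taken per replicate number, was 2.76 ± 0.041 at O1, 2.87 ± 0.17 at O4, 1.24 ± 0.089 at E1 and 0.889 ± 0.071 at E2, and stayed at 0.905 ± 0.093 at E4.

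**Figure D1:**
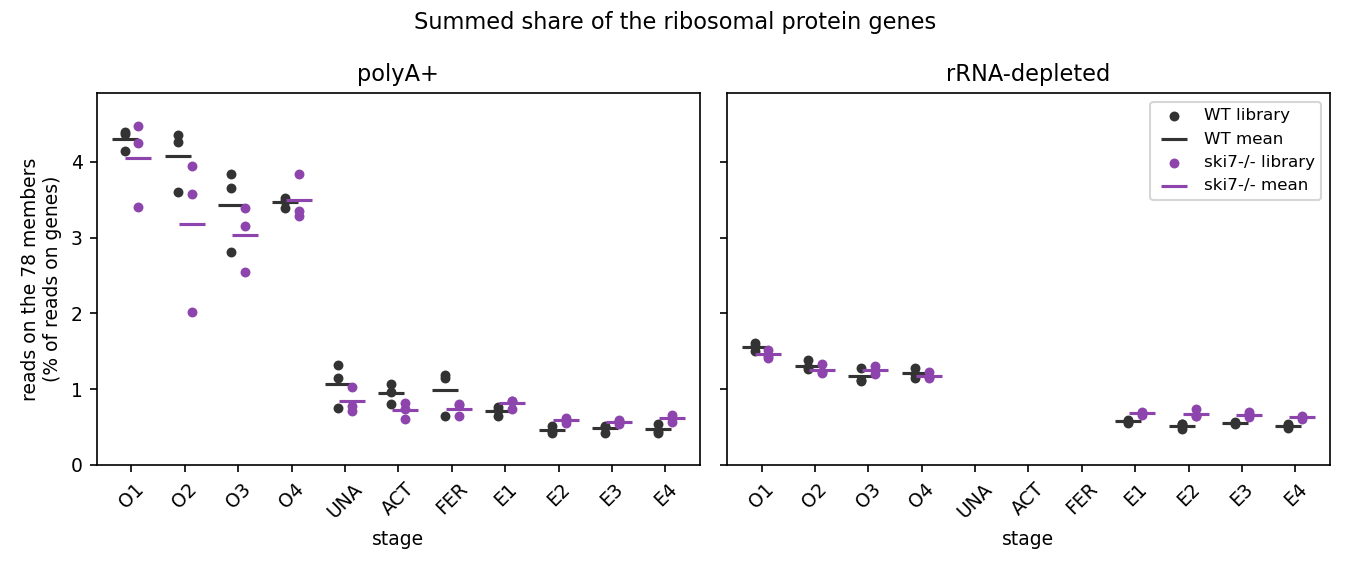
Reads on the 78 members as a percentage of all reads on genes (y axis) in each library, by stage (x axis), for polyA+ (left) and rRNA-depleted RNA (right). Points are single libraries and short lines are means of 3, and polyA+ shares lie between 2.018% and 4.475% in oocytes and at or below 1.322% in eggs and embryos.

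Within oogenesis the members fell moderately. Between O1 and O4 in WT rRNA-depleted RNA, 56 of 78 were called lower and 0 higher (edgeR quasi-likelihood test, Benjamini-Hochberg adjusted p under 0.05), where 14.6% of all genes tested were called lower and 19.4% higher, and their median log2 change was -0.48 against -0.01 for all genes. The polyA+ change had a similar size, with a median of -0.53 against -0.02, but only 8 of 78 were called lower, where 5.18% of all genes were and 12.5% were called higher. Leaving out WT replicate 1 gave 3 in place of 8, and leaving out replicate 2 or 3 gave 1, and a model with the replicates of a period as a random block, chosen after seeing the data, called 47. Among the members called lower in polyA+ RNA was rps12, a small subunit protein, by 1.48 ± 0.41 (SE) on the log2 scale (adjusted p = 0.00819). In rRNA-depleted RNA the largest falls included those of rpl35 (-1.22 ± 0.35, adjusted p = 0.00646), of rpl3 (-1.08 ± 0.22, adjusted p = 0.000222), which lies close to the peptidyl transferase centre, and of rps4y2 (-1.07 ± 0.29, adjusted p = 0.00418). Over the same stages the summed level of the follicle cell markers in WT polyA+ libraries went from a median of 179 CPM, with a highest value of 230, to one of 322 CPM, with a range of 279 to 492. Of 10 matched markers, 1 reached 10 CPM at O1 and 6 at O4, where cyp11a1 alone was at 198.3, 321.5 and 150.6 TMM CPM. The sum was 517 to 585 CPM in WT E1 embryos, with 6 of the 10 at 0, so no follicle cell content is read from it. Its part in the members' change was not tested.

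Between O4 and UNA the members moved apart from each other in polyA+ RNA. Of 78, 45 were called lower and 0 higher (edgeR quasi-likelihood test), where 40.5% of all genes were called lower and 36.2% higher. The members' median change was -0.81 on the log2 scale against -0.18 for all genes, a difference of -0.63. The scaling sets the level of all genes in this step: with library size alone the median of all genes was -1.09 and 73 members were called lower, while the members' median relative to all genes was -0.65. The members ranged from -5.07 (rpl7l1) to 0.51 (rpl36al). Without WT replicate 1 the count was 35 and the median -0.59 against -0.17 for all genes. The small subunit gene rps14 went from 617.8, 691.6 and 680.9 TMM CPM at O4 to 427.6, 701.3 and 936.1 at UNA, and its groups overlapped. By contrast rpl35a, a large subunit protein, went from 489.8, 504.8 and 434.2 to 32.19, 109.7 and 105.3 (-2.52 ± 0.38, adjusted p = 5.82e-08), so that no egg library reached any oocyte library. The change of rpl35a was -2.14 without WT replicate 1.

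The largest fall into the egg was that of rpl7l1, a paralogue of rpl7 whose yeast relative Rlp7 works in the assembly of the large subunit and is not part of the finished ribosome. Its polyA+ level was 258.4, 227.7 and 180.4 TMM CPM at O4 and 3.964, 7.403 and 7.827 at UNA (-5.07 ± 0.27, adjusted p = 5.98e-22, edgeR quasi-likelihood test). In this step 40.5% of all genes were called lower and 36.2% higher. Of the ribosome assembly factors on a list of other genes, 38 of 48 tested were called lower in the same step and 2 higher, with a median of -2.56. Examples are nop16 (-5.96) and wdr43 (-5.13), the first a nucleolar protein of the large subunit pathway and the second part of the small subunit processome. The mitochondrial ribosomal proteins, which build the separate ribosome of that organelle, were lower in 51 of 63 and higher in 5, with a median of -3.28. The difference between these lists and the members was not tested. Follicle cell markers fell in the same step in 6 of 7 tested genes (median -5.78), while cyp11a1, a steroid synthesis enzyme, was at 198.3, 321.5 and 150.6 TMM CPM at O4 and at 111.2, 1703 and 1211 at UNA. WT replicate 1 of the eggs thus stood apart in cyp11a1 as well, and the summed level of the follicle markers at UNA ran from 64.4 to 944 CPM. Their part in the members' change was not tested.

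In WT polyA+ RNA no member was called across activation and fertilization, and most were called lower by the 2-cell stage. Between UNA and FER 0 of 78 members were called in either direction by edgeR's quasi-likelihood test and 0 by DESeq2, where edgeR called 0.0703% of all genes higher and 1.98% lower, while 4 had an unadjusted p under 0.05 and the median was -0.22 against -0.08 for all genes. Between FER and E1 59 of 78 were called lower, where 24% of all genes were and 19.9% were called higher, at a median of -0.99 against -0.05. In 24 of 78 the E1 libraries were lower without overlap, where 22.2% of all genes were. The count of 59 depended on the WT replicates: it was 20 without replicate 3 and 65 without replicate 1, with medians of -0.52 and -1.38. It was also lower with library size alone. Fertilized eggs differed between females, as in rps14 at 375.2, 664.6 and 1057 TMM CPM at FER against 373.8, 378.2 and 341.3 at E1. The members' median level was 223 TMM CPM at FER and 110 at E1 in WT. In ski7-/-, where this step was not tested, it was 128 and 120. Their mean summed share was 0.994% and 0.71% in WT, with overlap between libraries, and 0.742% and 0.812% in ski7-/-.

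Between the 2-cell and the sphere stage most members fell further in polyA+ RNA, while none was called in rRNA-depleted RNA. Between E1 and E4, 65 of 78 members were called lower in WT polyA+ RNA and 2 higher, where 26.1% of all genes were called lower and 28.8% higher, with a median change of -1.29 against 0.01. In rRNA-depleted RNA 0 of 78 were called by edgeR's quasi-likelihood test and 0 by DESeq2, where edgeR called 0.729% of all genes higher and 1.55% lower, 12 had an unadjusted p under 0.05, and the median was -0.07 against 0.01. For rps6, the small subunit protein that S6 kinase phosphorylates, polyA+ RNA went from 148.8, 130.9 and 99.46 TMM CPM at E1 to 51.9, 40.97 and 39.22 at E4. In rRNA-depleted RNA rps6 was at 136.7, 101.1 and 102.9 at E1 and at 105, 86.24 and 82.32 at E4, so the polyA+ groups were apart while the rRNA-depleted groups overlapped. The 2 members that rose in polyA+ RNA were rpl7l1 (3.0 ± 0.25, adjusted p = 2.41e-14) and rps19bp1 (1.32 ± 0.24, adjusted p = 4.56e-06). The first is related to an assembly protein of yeast, and the second is not a ribosomal protein. In rRNA-depleted RNA rpl7l1 was at 179.5, 176.8 and 164.6 TMM CPM at O4, at 140.5, 133.9 and 133.3 at E1 and at 132.3, 96.32 and 114.8 at E4. It was called lower from O4 to E1 (-0.36 ± 0.09, adjusted p = 0.000881), a small step beside its polyA+ fall, and was not called from E1 to E4. In polyA+ RNA from E1 to E4, 37 of 48 assembly factors were called higher and 1 lower (median 1.5), and 34 of 63 mitochondrial ribosomal proteins were called higher and 6 lower (median 1.33).

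In rRNA-depleted RNA, where members had already fallen between O1 and O4, members also fell between O4 and E1, an interval that held no rRNA-depleted egg library. There 67 of 78 members were called lower and 0 higher (edgeR quasi-likelihood test), where 24.5% of all genes were called lower and 19.0% higher, and the median was -1.28 against -0.02. The count was 66 or 67 whichever WT replicate number was left out. For rpl34, of the large subunit, the level went from 95.43, 96.35 and 123.2 TMM CPM at O4 to 20.04, 16.19 and 22.62 at E1 (-2.44 ± 0.14, adjusted p = 3.76e-16), without overlap. The fall of rpl35 was larger (-3.11 ± 0.42, adjusted p = 2.46e-07), from 52.26, 60.13 and 101.5 to 5.795, 3.938 and 15.44. Both subunits took part, with 37 of 44 large subunit members (median -1.24) and 30 of 33 small subunit members without rps19bp1 (median -1.30) called lower.

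The direct comparison of the libraries places these changes side by side. In WT oocytes, taken as the mean of O1 to O4, all 78 members were called higher in polyA+ than in rRNA-depleted RNA, where 38.3% of all genes were, and the median log2 ratio was 1.91 against 0.03 for all genes tested. For the 5 members that passed the level filter only in polyA+ oocytes this direction was partly set by the filter. Of the 72 members that passed it in rRNA-depleted oocytes, a subset taken after seeing the data, 72 were called higher, with a median of 1.87. Such a ratio compares a gene with the other genes of the same libraries and is not a rate of capture. The large subunit (median 1.91) and the small subunit (1.93) had nearly the same ratio, and the 72 members ranged from 0.94 (rpl7l1) to 2.67 (rpl35). The mitochondrial ribosomal proteins were also higher in 63 of 63 genes, with a median of 1.31. At E1 56 of 78 members were still called higher and 3 lower, where 35.4% and 32.9% of all genes were, with a median of 1.36 and a wider spread between members (SD 1.03 against 0.42 in oocytes). Under library size alone, which moved the median of all genes to -0.73, 39 were higher and 15 lower at E1, and the members' median relative to all genes was 1.24 against 1.28 as reported. At E4 11 were called higher and 17 lower, where 13.9% and 14.5% of all genes were, with a median of -0.08. With the replicates of a period as a random block, chosen after seeing the data since libraries of the same number varied together across the kinds of library, the count of members higher at E4 was 6, and it was 3 without WT replicate 1 and 7 without WT replicate 3, while the count lower was 11 without WT replicate 3. The stages between gave 30 higher and 16 lower at E2, where 27.3% and 23.9% of all genes were, and 21 of each at E3, where 20.5% and 19.2% were.

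The differences between stages in this ratio were tested too. From oocytes to E1 it fell in 37 of 78 members and rose in 0, where 32.2% of all genes fell and 36.3% rose, with a median of -0.57 against 0.12 for all genes. From E1 to E4 it fell in 61 and rose in 2, where 27.3% of all genes fell and 24.1% rose, with a median of -1.38 against -0.12. The scaling moved these counts, with 65 and 32 members falling under library size alone, but the members' medians relative to all genes were -0.71 and -1.22 there against -0.69 and -1.26 as reported. The 78 include the members that passed the level filter only in polyA+ oocytes, whose ratio there was partly set by the filter. The only rises from E1 to E4 were again those of rpl7l1 (3.07 ± 0.23, adjusted p = 5.18e-19) and rps19bp1 (1.2 ± 0.25, adjusted p = 3.35e-05, edgeR quasi-likelihood test).

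**Figure D2:**
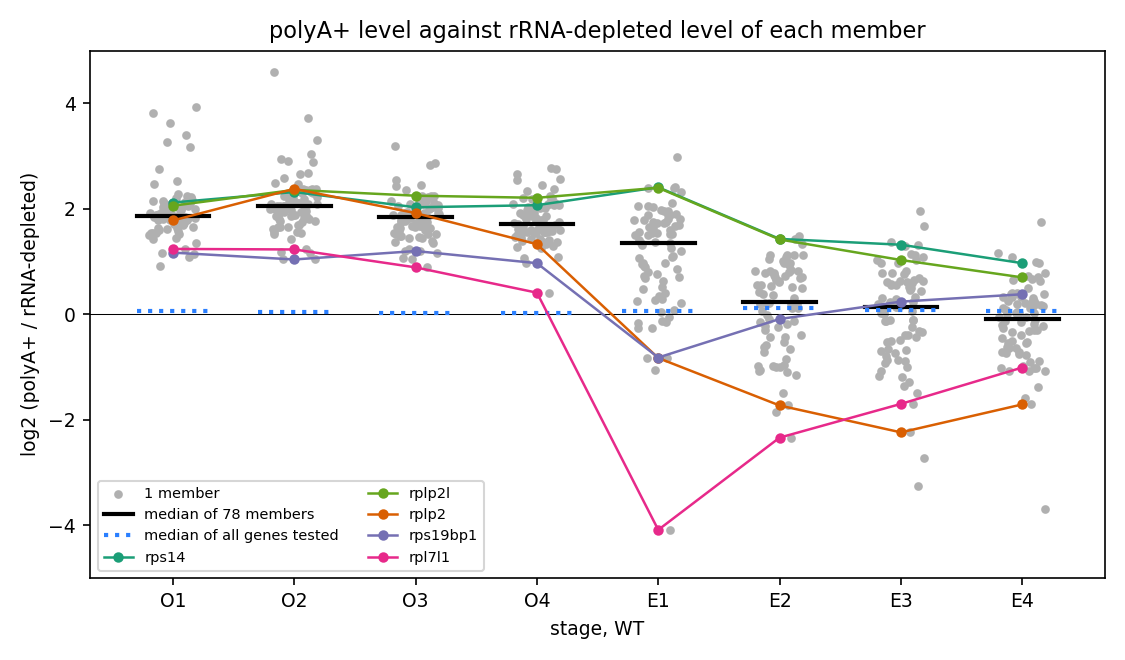
Log2 ratio of polyA+ to rRNA-depleted level (y axis) of each of the 78 members in WT at each stage with both kinds of library (x axis). Grey points are members, black lines their medians, dotted lines the medians of all 11387 genes tested, and coloured lines 5 named members, and the members' median goes from 1.86 at O1 to -0.08 at E4, while rpl7l1 falls to -4.09 at E1.

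The stalk proteins rplp0, rplp1, rplp2 and rplp2l, which recruit the elongation factors, had unlike values, and the differences between them were not tested. Between O4 and UNA rplp0 fell by 1.02 (adjusted p = 0.0024), rplp1 by 1.88 (adjusted p = 1.8e-05) and rplp2 by 2.03 (adjusted p = 0.0015, edgeR quasi-likelihood test), whereas rplp2l, a relative of rplp2, had a change of -0.09 (adjusted p = 0.80). For rplp2 the polyA+ level was 98.77, 134.6 and 104.3 TMM CPM at O4 and 4.44, 27.27 and 48.69 at UNA, so the egg replicates spread widely but none reached an oocyte library. Without WT replicate 1 the changes of rplp0, rplp1, rplp2 and rplp2l were -0.73, -1.55, -1.67 and 0.09, and the first 3 were still called lower. At E1 rplp2 was lower in polyA+ than in rRNA-depleted RNA (-0.83 ± 0.32, adjusted p = 0.0167) and rplp2l was higher (2.40 ± 0.22, adjusted p = 3.57e-16). In oocytes both were higher in polyA+ RNA, by 1.85 for rplp2 and 2.22 for rplp2l.

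The genes of the 5S particle, which joins the large subunit as a unit and is known in mammals for binding the p53 regulator MDM2, had unlike values on entry into the egg. Between O4 and UNA rpl11 had a change of -0.13 (adjusted p = 0.62) and rpl5 ENSDARG00000015862 one of 0.18 (adjusted p = 0.70), while rpl5 ENSDARG00000020197 fell by 0.60 (adjusted p = 0.026). Between FER and E1 in WT rpl11 fell by 1.31 (adjusted p = 8.7e-06), and the rpl5 genes fell by 1.53 (adjusted p = 0.0028) and 1.23 (adjusted p = 8.7e-05). In that step the count of members called lower went from 59 to 20 without WT replicate 3. The values of these genes without that replicate are not given here. Of small subunit genes, rps3 fell by 1.09 into the egg (adjusted p = 6.2e-05) and rps6 by 1.54 (adjusted p = 2.9e-07, edgeR quasi-likelihood test). The fall of rps19, a gene mutated in Diamond-Blackfan anaemia, was 1.1 (adjusted p = 0.00011, same test). Without WT replicate 1, rpl5 ENSDARG00000020197 was no longer called (-0.41, adjusted p = 0.14), while rps3 (-0.92), rps19 (-0.88) and rps6 (-1.27) were.

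Paralogues with the same symbol or name had unlike values in several cases. At the entry into the egg rps26 ENSDARG00000030408 fell by 1.28 (adjusted p = 5.6e-05) while rps26 ENSDARG00000037071 had a change of -0.34 (adjusted p = 0.29), and the differences between copies were not tested. The genes rps27.1 (0.03), rps27.2 (0.07) and rps27l (-1.36, adjusted p = 0.0054) also had unlike values, and rps27l is a p53 target in human cells. The pair rpl22 (-1.72, adjusted p = 6.2e-08) and rpl22l1 (-1.22, adjusted p = 0.00062) fell together. Without WT replicate 1, rps27l was no longer called (-1.05, adjusted p = 0.083), while rps26 ENSDARG00000030408 (-1.01), rpl22 (-1.55) and rpl22l1 (-0.92) were. The contrast of rpl7 and rpl7l1 was the widest of these pairs: rpl7 fell by 1.24 and rpl7l1 by 5.07, and from E1 to E4 rpl7 fell by 1.41 while rpl7l1 rose by 3.0. Reads were counted only where they mapped uniquely, so near-identical copies and pseudogenes can take reads from a gene, and the levels of rpl39, rpl30, rpl9, rpl36al, rpl10, rps27a, rps3a and rpl12, with means of at most 24 TMM CPM in WT O4 polyA+ RNA, are uncertain. In rpl30, for example, the WT E1 rRNA-depleted libraries gave 8.934, 0.4376 and 0 TMM CPM.

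**Figure D3:**
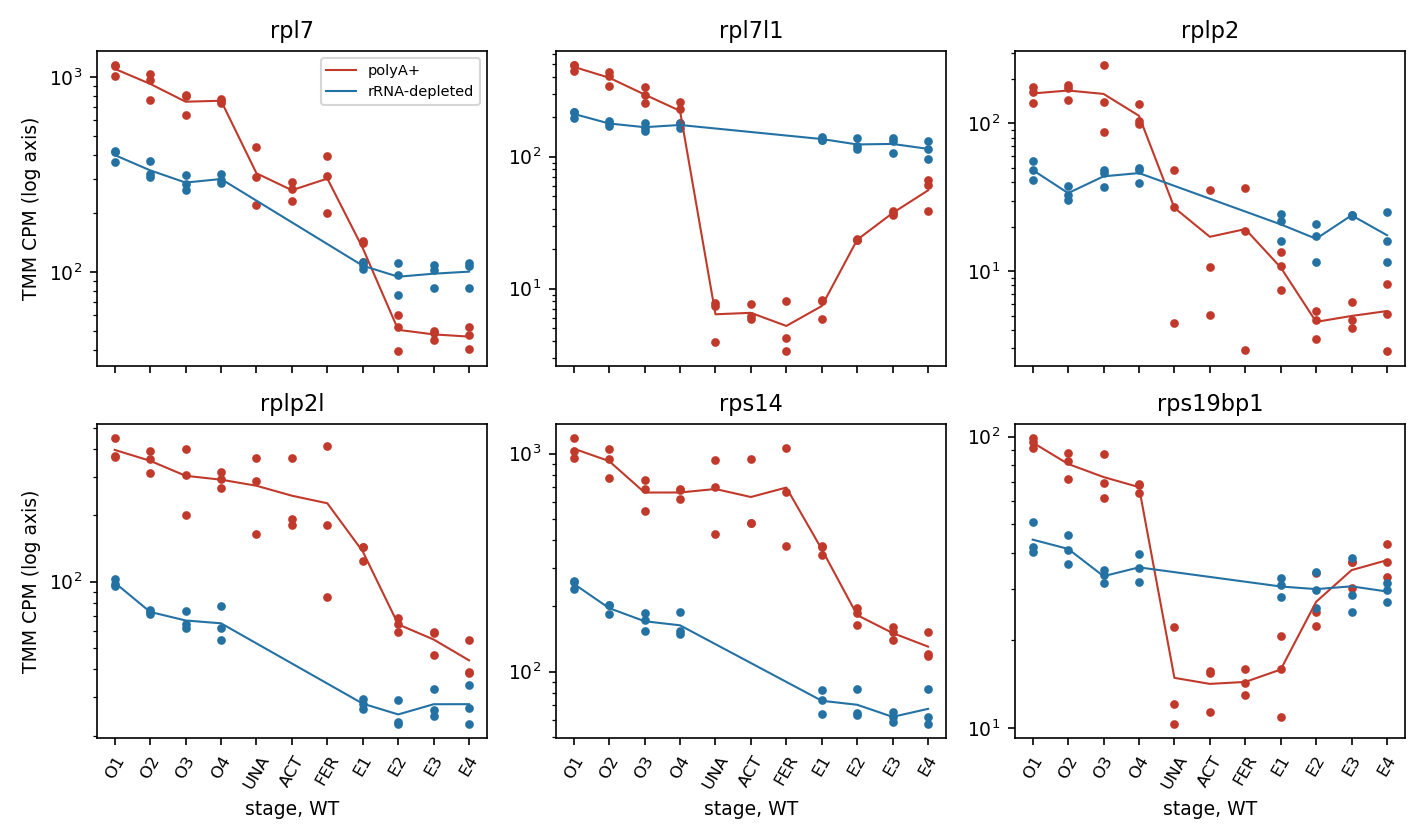
TMM-scaled CPM on a log axis (y) of 6 members in WT at each stage (x), in polyA+ (red) and rRNA-depleted RNA (blue). Points are libraries and lines join the means of 3, and in rpl7l1 polyA+ RNA drops from at least 180.4 at O4 to at most 7.827 at UNA and is back at 38.95 to 66.98 at E4, with rRNA-depleted RNA between 96.32 and 132.3 at E4.

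Members that lost more polyA+ RNA on entry into the egg tended to have a lower polyA+ to rRNA-depleted ratio at the 2-cell stage. Over the 67 members tested in all 5 sets, Pearson's r between the log2 change from O4 to UNA and the log2 ratio at E1, both from means of log2(TMM CPM + 1) over the 3 libraries of a group, was 0.66 and Spearman's rho 0.62, and without rpl13a they were 0.64 and 0.6. They were 0.66 and 0.62 again without WT replicate 1. The measures share no library, but both use WT polyA+ RNA, the points are genes and not independent replicates, and no p is given. The order of members was also alike in the 2 genotypes, with r = 0.87 (rho 0.96) for the change from O4 to UNA and r = 0.91 (rho 0.91) for the ratio at E1. In the fitted values, rps14 (0.05 into the egg, ratio 2.41 at E1), rplp2l and rps28 stood at the upper end, and rpl13a, rps19bp1, rplp2 and rpl35a at the lower end, as did rpl7l1, which is not among the 67. The exception rpl35 fell by 1.53 into the egg yet had the highest ratio at E1 (2.99 ± 0.36), and its rRNA-depleted level there was between 3.938 and 15.44 TMM CPM. In rpl13a the 3 replicates were unlike, with 3.139, 3.063 and 33.06 TMM CPM in rRNA-depleted RNA at E1.

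**Figure D4:**
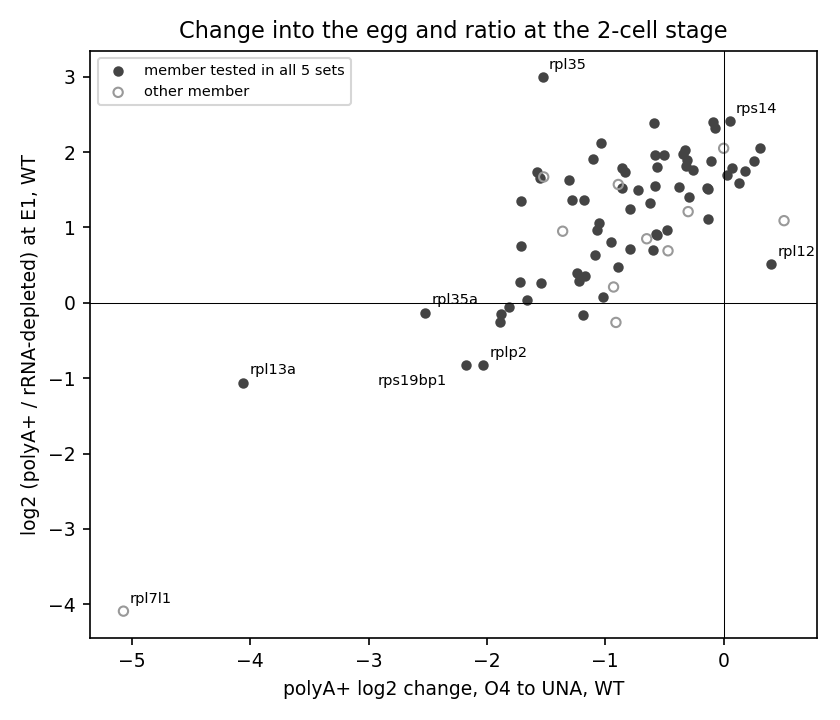
Fitted log2 change in polyA+ level from O4 to UNA in WT (x axis) against the log2 ratio of polyA+ to rRNA-depleted level at E1 in WT (y axis). Each point is 1 member, filled for the 67 tested in all 5 sets. The change ranges from -5.07 (rpl7l1) to 0.51 (rpl36al) and the ratio from -4.09 (rpl7l1) to 2.99 (rpl35), with rps14 at 0.05 and 2.41.

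Other genes of the translation machinery were read beside the members. Of all genes tested, 36.2% were called higher and 40.5% lower from O4 to UNA, 28.8% and 26.1% from E1 to E4 in polyA+ RNA, and 24.5% lower from O4 to E1 in rRNA-depleted RNA, and on lists this short nothing is read from the counts beside these shares. Of ribosomal proteins outside the symbol rule, 3 of 3 tested genes were lower at E1 than at O4 in rRNA-depleted RNA (median -2.30). Translation factors and other mRNAs known for a pyrimidine start were lower into the egg in 14 of 23 genes and higher in 5 (median -1.11), with eif3d (-3.28) and eif3g (-3.01), subunits of initiation factor eIF3, among the largest falls. Between E1 and E4 12 of these 23 were lower and 4 higher in polyA+ RNA. Among regulators of the pyrimidine start, larp1b rose by 3.56 into the egg (adjusted p = 6.78e-17) and mtor fell by 3.14 (adjusted p = 2.7e-11, edgeR quasi-likelihood test), and of the whole list 6 of 10 were higher and 3 lower. Among regulators of cytoplasmic tails 5 of 10 were higher and 3 lower, with cnot8 (4.18), a deadenylase subunit of CCR4-NOT, and tent4a (3.89), a poly(A) polymerase, among the rises.

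In ski7-/- oocytes few members were called. In polyA+ oocytes 6 of 78 members were called lower at 1 or more stages and 0 higher, where 6.7% and 9.46% of all genes were, by edgeR's quasi-likelihood test, and DESeq2 called 9 lower and 0 higher. At O1 2 were called lower, where 4.02% of all genes were called lower and 4.11% higher. At O3 2 were called lower (3.91% of all genes lower, 3.8% higher), and at O4 1 (3.55% lower, 2.89% higher). All 6 were called at O2 (4.22% lower, 7.51% higher), at a median of -0.46 against 0.06 for all genes, and 24 of 78 had an unadjusted p under 0.05 there. Without ski7-/- replicate 1 the O2 median was -0.18. Leaving out ski7-/- replicate 1, whose O2 library stood apart, gave 2 called members over the 4 stages, as did leaving out WT replicate 1, while leaving out ski7-/- replicate 2 gave 23 and replicate 3 gave 3. Without WT replicate 3 the count was 4. In rRNA-depleted oocytes 9 of 72 were lower and 3 higher, where 11.7% and 10.3% of all genes were. By stage 7 were lower at O1 (8.91% of all genes lower, 7.34% higher), 5 at O2 (6.96% lower, 6.14% higher) and 1 at O4 (6.07% lower, 5.42% higher). At O3 3 were higher and 1 lower, where 4.9% and 5.97% of all genes were. The count of 9 was 1, 3 and 6 without ski7-/- replicates 1, 2 and 3, and 2, 9 and 5 without WT replicates 1, 2 and 3. The count of 3 higher was 7 without WT replicate 1, 2 without ski7-/- replicate 1, and 0 or 1 without any other replicate number. With no filter on low counts the 9 and the 3 were 2 and 0. The summed level of the follicle cell markers differed between the same groups. At O1 in polyA+ RNA it was at most 230 CPM in WT and 253 to 369 CPM in ski7-/-, without overlap. In rRNA-depleted RNA its medians at O1 were 223 and 466. Only 1 of 10 matched markers reached 10 CPM in any of these groups. In WT E1 polyA+ embryos, where 6 of the 10 were at 0, the sum was 517 to 585 CPM. The part of this sum in the genotype difference was not tested.

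The members lower most often in ski7-/- oocytes were rps12 and rps13, both small subunit proteins. Their highest values in any library were 119.27 CPM for rps12 and 52.14 CPM for rps13. As only uniquely mapped reads were counted, the levels of these genes are uncertain too. In polyA+ RNA at O1 rps12 was at 76.98, 104.1 and 135.7 TMM CPM in WT and at 31.9, 39.55 and 17.25 in ski7-/- (-1.79 ± 0.41, adjusted p = 0.00885). At FER it was at 22.86, 35.91 and 33.74 in WT and at 4.644, 3.763 and 3.649 in ski7-/- (-2.80 ± 0.40, adjusted p = 0.000334). These groups did not overlap at either stage. At O4 in polyA+ RNA rps12 was not called (-1.06 ± 0.41, adjusted p = 0.155, edgeR quasi-likelihood test). In rRNA-depleted RNA rps12 was lower at all 4 oocyte stages, by 2.62 at O1 (adjusted p = 0.000165) and 2.14 at O4 (adjusted p = 0.00642, edgeR quasi-likelihood test). For rps13 the polyA+ levels at O3 were 38.58, 48.32 and 22.14 in WT and 11.82, 9.939 and 10.7 in ski7-/- (-1.71 ± 0.34, adjusted p = 0.00251), and it was called lower at all 4 oocyte stages in polyA+ RNA and at O1 and O2 in rRNA-depleted RNA.

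In ski7-/- eggs the members' medians were lower, but the calls depended on single females. Of 71 tested members 67 had a log2 fold change under 0 at all 3 stages, with medians of -0.61 at UNA, -0.63 at ACT and -0.67 at FER against 0.05, 0.04 and 0.03 for all genes. The medians were -0.84, -0.76 and -0.95 without WT replicate 1, and those without another replicate number are not given here. Over all genes, WT replicates 2 and 3 were the most alike at UNA (r = 0.9559 of log2 levels). At ACT and FER replicates 1 and 2 were (0.973 and 0.9696), and replicate 3 was less like both (0.9455 to 0.9556). Among the ski7-/- UNA libraries replicate 3, which had the highest share of the members, was less like replicates 1 and 2 (0.9079 and 0.9101). Those 2 had an r of 0.9655 with each other. Called lower at 1 or more stages were 13 of 71 and called higher 0, where 12.2% and 11.4% of all genes were. By stage these were 5 at UNA (9.39% of all genes lower, 9.03% higher), 3 at ACT (7.42% lower, 7.64% higher) and 12 at FER (10.8% lower, 9.08% higher). The 13 became 52 without WT replicate 1, the low replicate of the WT eggs, and between 1 and 5 without any other replicate number. Without WT replicate 3 it was 3. DESeq2 called 28 lower and 0 higher, while library size alone gave 4 lower and no filter on low counts 7. For rpl11 the levels at FER were 322.7, 590 and 813.7 TMM CPM in WT and 268.8, 238.4 and 276.5 in ski7-/- (-0.97 ± 0.23, adjusted p = 0.0108, edgeR quasi-likelihood test), without overlap but with a wide WT range. The members' summed shares at UNA were 0.771%, 0.708% and 1.034% in ski7-/- and overlapped those of WT. Reads on mitochondrially encoded genes were 3.18% to 4.89% of reads on genes in WT eggs and 1.18% to 2.55% in ski7-/- eggs, and without these reads the members' mean share at UNA was 1.118% in WT and 0.854% in ski7-/-. The median summed level of the follicle cell markers was 581, 594 and 633 CPM at UNA, ACT and FER in WT, where 1 of 10 markers reached 10 CPM and single libraries ran from 56.6 to 944, and 222, 211 and 206 CPM in ski7-/-. Among the ski7-/- UNA libraries the highest sum of immune cell markers was 181 CPM (median 0.607) and that of blastoderm markers 1540 CPM (median 2.77). Among the WT UNA libraries these were 26.5 CPM (median 14) and 534 CPM (median 232). Of 9 matched blastoderm markers, 1 reached 10 CPM at UNA in each genotype. The part of these markers in the genotype difference was not tested.

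In ski7-/- embryos members were called higher in both kinds of library. In polyA+ RNA 24 of 68 members were called higher at 1 or more stages and 0 lower, where 17.6% and 17.5% of all genes were (edgeR quasi-likelihood test, with 0 lower by DESeq2 as well). By stage these were 2 at E1, where 13.9% of all genes were called higher, 15 at E2 (7.65%), 8 at E3 (7.17%) and 21 at E4 (7.11%), with medians of 0.08, 0.32, 0.20 and 0.36. The shares of all genes called lower at these stages were 14.2%, 7.74%, 7.63% and 7.89%. In rRNA-depleted RNA 29 of 70 were higher and 0 lower, where 11.3% of all genes were called in each direction, and by stage 6 at E1 (5.72%), 21 at E2 (5.18%), 17 at E3 (7.38%) and 12 at E4 (5.7%), with medians of 0.23, 0.40, 0.22 and 0.29. The shares of all genes called lower were 5.92%, 5.76%, 7.25% and 6.42%. In polyA+ RNA the count of 24 was 43 without WT replicate 1, 13 without WT replicate 2 or 3, 12 and 11 without ski7-/- replicates 1 and 2, and 26 without replicate 3. In rRNA-depleted RNA the count of 29 was 16 without WT replicate 1 and 13 without ski7-/- replicate 2, and between 20 and 28 without any other. With no filter on low counts 11 members were higher and 2 lower in polyA+ RNA. Libraries of the same number varied together across the stages of a genotype, and a random block per replicate set gave 39 higher in polyA+ RNA. A block on the replicate number, which the genotypes share only as a number, gave 46 higher there and 1 lower in rRNA-depleted RNA. The summed share in rRNA-depleted embryos did not overlap between genotypes at any of the 4 stages, as at E1 with 0.594%, 0.559% and 0.567% in WT and 0.681%, 0.704% and 0.656% in ski7-/-. The percentage of reads assigned to no gene did not overlap between genotypes at these stages either. At E1 it was 16.104%, 16.57% and 16.214% in WT and 13.33%, 12.965% and 13.147% in ski7-/-. Its part in the genotype difference was not tested. In rRNA-depleted embryos of all 4 stages, mitochondrially encoded genes held 0.941% to 1.53% of reads on genes in WT and 0.631% to 1.04% in ski7-/-, and without those reads the members' shares at E1 were 0.566% to 0.602% in WT and 0.661% to 0.709% in ski7-/-, still apart.

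Named examples came from both subunits. In polyA+ RNA at E4 rps2, at the entry channel of the small subunit, was at 81.74, 55.66 and 75.33 TMM CPM in WT and at 162.3, 136 and 133.7 in ski7-/- (0.99 ± 0.16, adjusted p = 0.000364). The small subunit gene rps9 was called higher at all 4 embryo stages, by between 0.45 and 0.54, and at E2 went from 91.68, 89.87 and 78.28 in WT to 121.6, 125.6 and 113.4 in ski7-/-. The large subunit gene rpl8 was likewise called at all 4 stages, by between 0.32 and 0.55. In rRNA-depleted RNA rpl34 was called higher at all 4 stages, and at E1 it was at 20.04, 16.19 and 22.62 in WT and at 36.5, 35.34 and 37.58 in ski7-/- (0.88 ± 0.18, adjusted p = 0.00353, edgeR quasi-likelihood test). The genotypes did not overlap in the stages given here by library, while rpl8 overlapped at E1.

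**Figure D5:**
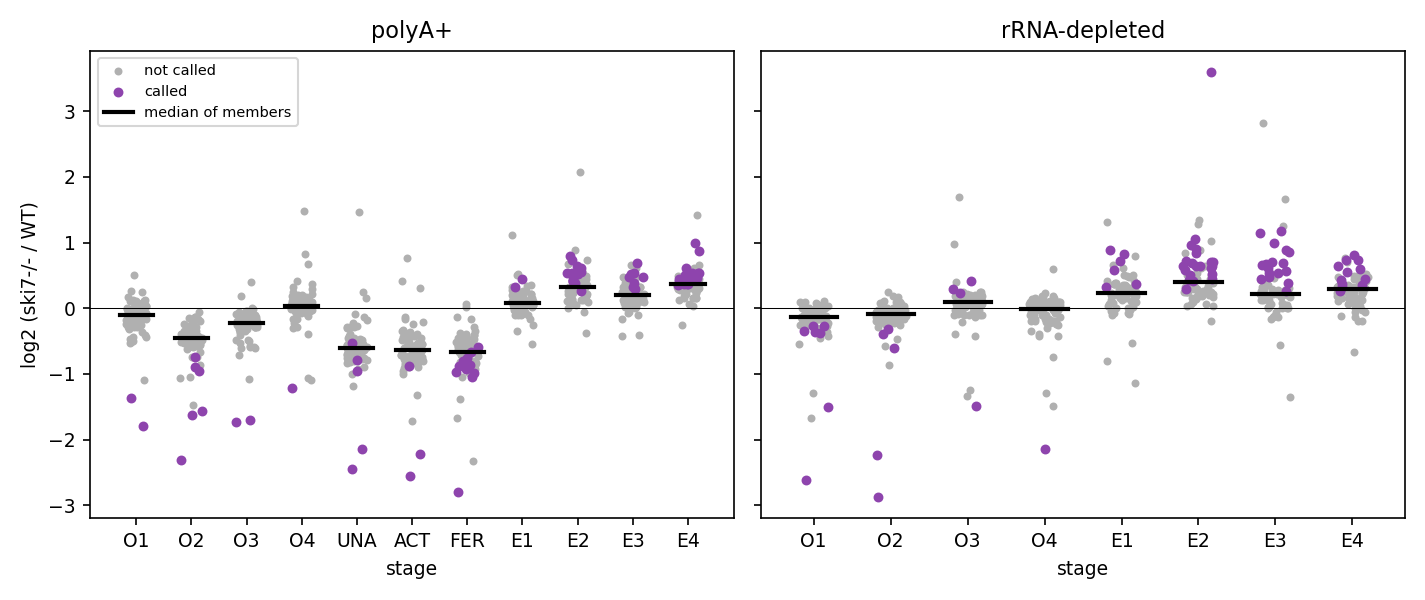
Log2 fold change of ski7-/- over WT (y axis) of each member tested, by stage (x axis), in polyA+ (left) and rRNA-depleted RNA (right). Purple points passed the adjusted threshold, grey points did not, and black lines are medians, which lie between -0.67 and -0.61 in eggs and between 0.08 and 0.40 in embryos.

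Whether the genotype difference itself changed with the period was tested in polyA+ RNA. It was lower in eggs than in oocytes in 55 of 78 members, where 25.4% of all genes were, with a median of -0.63 against -0.06 for all genes, and higher in 0, where 19.9% of all genes were. It was higher in embryos than in eggs in 72 of 78, where 19.8% of all genes were, with a median of 1.11 against 0.05, and lower in 0, where 14.4% of all genes were. The first count fell to 2 and the second to 40 with the replicates of a period as a random block, since eggs of 1 female entered at 3 stages. Library size alone gave 6 for the first, and leaving out WT replicate 3 gave 12 and 50. The first count was also 29 without WT replicate 2 and 18 without ski7-/- replicate 2. Of the 78 members, 71 passed the level filter in polyA+ eggs and 68 in polyA+ embryos, so both counts include members under the filter. Between the kinds of library the genotype difference in oocytes differed in 0 of 78 members by edgeR's quasi-likelihood test and 0 by DESeq2, with 10 at an unadjusted p under 0.05, where edgeR called 1.97% of all genes higher and 0.755% lower. In embryos the log2 difference was lower in polyA+ than in rRNA-depleted RNA in 5 members and higher in 1, where 4.34% and 3.03% of all genes were. The count of 5 was 0 without WT replicate 1, 8 without WT replicate 3 and 2 without ski7-/- replicate 2 or 3.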

How the data were processed

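The deposited gene counts (whole reads per Ensembl gene, 1 table per library) were made by the authors from stranded single-end reads, aligned to GRCz11 with HISAT2 2.1.0 and counted with HTSeq 0.9.1, which keeps uniquely mapped reads. Versions are from the submitters' processing notes. Reads assigned to no gene (10.665% to 29.721%) stayed out of library sizes. Deposited kallisto files were not used. No sequences or transcript lengths were used, so levels were not compared between genes.

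Genes at 10 CPM in 3 libraries of a set were tested with edgeR 4.0.16 (TMM scaling, quasi-likelihood test, Benjamini-Hochberg adjustment over all genes tested, threshold 0.05), with R 4.3.3. Genotypes were compared per period and library type, while stages, library types and interactions were fitted over all periods. Levels are TMM-scaled CPM. Genes were named by the largest calls without overlap in each comparison, the calls at most stages in each genotype set, fixed roles and paralogue sets. Some results are not reported here. The genes rps28, rpl12 and rpl36al and the libraries shown in full were chosen after their values were seen, and members, lists and tests were chosen with earlier results of these data known. The edgeR test was tried on simulated counts at the first stage of the genotype comparison in polyA+ eggs, polyA+ embryos and rRNA-depleted embryos. The other comparisons and the alternative models were not tried in this way.

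Replicate numbers pair the UNA, ACT and FER eggs of a female and the polyA+ and rRNA-depleted libraries of a sample (48 of 48 correlations of deviations over 0.1), but not the genotypes (at most 3 of 12 in a set). Across the stages of a genotype, 35 of 36 were over 0.1 in polyA+ oocytes and 36 of 36 in rRNA-depleted oocytes. In embryos these were 34 of 36 and 32 of 36. Calls at several stages of a period, or in both kinds of library, are thus not independent. Depth limits low genes: 3 reads are 0.0206 to 2.0842 CPM. Alternatives were DESeq2 1.42.0, its size factors, library size alone, TMM without the members, no filter, replicate blocks (limma 3.58.1) and leaving out each replicate number. Figures were drawn with matplotlib 3.10.9.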

Additional observations from a re-analysis of the deposited data

Results flagged for a closer look

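These values come from tests of a difference between differences. For the genotype difference, eggs against oocytes gave 55 of 78 members lower, where 25.4% of all genes were. The named members were rpl30 (-1.46), rpl36al (-1.43), rps27a (-1.42), rpl39 (-1.31), rplp2 (-1.17) and rps12 (-1.02), on the log2 scale. Embryos against eggs gave 72 members higher, where 19.8% of all genes were, with rplp2 at 1.99, rps27a at 1.86, rpl39 at 1.78, rps13 at 1.76, rps12 at 1.72 and rpl35a at 1.52. With the replicates of a period as a random block the 55 and the 72 became 2 and 40, and with library size alone the 55 became 6. The genes rpl30, rpl36al and rpl39 had passed the level filter only in polyA+ oocytes and rps27a had not passed it in polyA+ eggs, so nothing is read from their values. As rps12 and rps13 had not passed it in polyA+ embryos, nothing is read from their values for embryos against eggs. All but rplp2, rps12, rps13 and rpl35a among the named members have few reads, at most 12.2 TMM CPM on average in WT O4 polyA+ RNA.

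Between polyA+ and rRNA-depleted embryos the log2 genotype difference was higher in polyA+ RNA in 1 member, rps2 (0.37), where 3.03% of all genes were. It was lower in 5, where 4.34% of all genes were: rps27l (-1.01), rpl35 (-0.86), rpl31 (-0.67), rpl3 (-0.48) and rps14 (-0.45). Nothing is read from counts this close to the shares of all genes. The gene rps27l had not passed the level filter in polyA+ embryos, so nothing is read from its value. Without WT replicate 1 none of the 5 was called, and without WT replicate 3 the count was 8.

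The ratio of polyA+ to rRNA-depleted level fell from oocytes to E1 in 37 members, where 32.2% of all genes fell and 36.3% rose, with rpl7l1 at -5.03, rpl13a at -3.07 and rpl30 at -2.71. The value of rpl30 was 1.23 without WT replicate 1, and was not called with a random block per replicate set (-0.81, limma adjusted p = 0.473) or per set and period (-0.96, limma adjusted p = 0.397). From E1 to E4 the ratio rose in 2, rpl7l1 (3.07) and rps19bp1 (1.2), and fell in 61, among them rpl30 (-3.91), rps27a (-2.56) and rpl24 (-1.85). Of all genes 24.1% rose and 27.3% fell. The gene rpl30 had passed the level filter only in polyA+ oocytes, and rps27a had not passed it in polyA+ embryos. Nothing is read from the values of these genes.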

How the results depend on the processing

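Counts of members called are given with the reported count first. DESeq2's Wald test gave 28 for 13 lower in ski7-/- eggs, 5 for 3 higher in rRNA-depleted ski7-/- oocytes, 28 for 8 lower from O1 to O4 in polyA+ RNA and 1 for 0 higher for the genotype difference in eggs against oocytes. DESeq2 size factors gave 23 and 1 for the last pair. Library size alone gave 4 for 13 lower in ski7-/- eggs, 15 for 3 lower at E1 by library, 65 for 37 lower for E1 against oocytes by library, 4 for 2 higher and 32 for 61 lower for E4 against E1 by library, and 2 for 1 higher for genotype by library in embryos. It gave 5 for 8 lower from O1 to O4, 73 for 45 lower from O4 to UNA, 1 for 0 higher and 30 for 59 lower from FER to E1, 4 for 2 higher from E1 to E4, 34 for 56 lower from O1 to O4 in rRNA-depleted RNA, 1 for 0 higher and 6 for 55 lower for genotype in eggs against oocytes, and 1 for 0 lower for embryos against eggs. No filter gave 7 for 13 in eggs, 11 for 24 higher and 2 for 0 lower in polyA+ embryos, 0 for 3 higher and 2 for 9 lower in rRNA-depleted oocytes, and 0 for 1 higher for genotype by library in embryos.

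The genotypes share only replicate numbers. With the replicate block, 46 for 24 members were higher in polyA+ ski7-/- embryos, 1 for 0 lower in rRNA-depleted embryos, 5 for 3 higher in rRNA-depleted oocytes, 2 for 0 lower for genotype by library in oocytes, 1 for 0 higher for genotype in eggs against oocytes, and 1 higher and 2 lower for 0 from E1 to E4 in rRNA-depleted RNA. A random block per replicate set gave 28 lower in eggs, 39 higher in polyA+ embryos, 1 higher and 15 lower in rRNA-depleted oocytes, 5 for 11 higher at E4 by library, 2 for 0 lower for genotype by library in oocytes, and 0 higher and 3 lower in embryos. A random block per set and period, chosen after seeing the data, gave 6 higher at E4 by library, 3 lower for genotype by library in oocytes and 3 in embryos, 47 lower from O1 to O4, 1 lower from UNA to FER, 2 for 55 and 40 for 72 for genotype between periods, 1 higher from O1 to O4 and 1 lower from E1 to E4 in rRNA-depleted RNA.

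Leaving out 1 replicate number gave, for ski7-/- against WT, 1 to 52 lower in eggs, 11 to 43 higher in polyA+ embryos, 2 to 23 lower in polyA+ oocytes, 13 to 28 higher in rRNA-depleted embryos, and 0 to 7 higher and 1 to 9 lower in rRNA-depleted oocytes. By library it gave 48 to 53 higher and 2 to 3 lower at E1, 3 to 8 higher and 11 to 16 lower at E4, 0 to 1 higher and 31 to 37 lower for E1 against oocytes, 2 to 3 higher and 47 to 58 lower for E4 against E1, 0 to 2 lower for genotype in oocytes, and 0 to 1 higher and 0 to 8 lower in embryos. For stages it gave 1 to 3 lower from O1 to O4, 35 to 53 from O4 to UNA, 0 to 2 higher and 20 to 65 lower from FER to E1, 56 to 65 lower from E1 to E4, and in rRNA-depleted RNA 45 to 51 lower from O1 to O4, 66 to 67 from O4 to E1 and 0 to 1 in each direction from E1 to E4. For genotype between periods it gave 0 to 1 higher and 12 to 69 lower in eggs against oocytes and 50 to 75 higher in embryos against eggs. The value of rpl30 for E1 against oocytes by library was -2.71 as reported, 1.23 without WT replicate 1 and as low as -3.54 without WT replicate 3. The cause of these moves was not tested.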
